A study of Mus musculus with 5 samples.

Results

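Collagens are the main structural proteins of the extracellular matrix. Each collagen molecule is a helix wound from alpha chains, and each chain is encoded by its own gene. Fibrillar collagens form the cables of connective tissue, type IV chains form the sheet-like network of basement membranes, and smaller classes link fibrils, anchor epithelia or sit in the cell membrane. Several collagen mRNAs carry sites for the microRNA-29 family, which lowers their level in fibroblasts of many organs, and in the uterus collagens are made by endometrial stroma, smooth muscle, vessels and, for some chains, by epithelium.

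The genes described here are those whose array name is COL, a number, A and a number and nothing else. They were 38 genes with 80 probes, of 31490 names and 45281 probes on the array. Each gene was read from the probe that was brightest over all 5 arrays. Of the 38 genes, 32 were detected well enough to be tested, out of 15733 genes tested in all, and each of the 32 was detected in all 5 pools. The other 6 genes, Col9a1, Col9a3, Col10a1, Col13a1, Col19a1 and Col28a1, did not pass the filter. The probe of Col28a1 was detected on 1 control array and the probes of the other 5 on none, so for these genes no difference is given.

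The samples were total RNA of pooled uteri, taken at 15 days of age from mice of mixed C57BL/6J and 129S5/Brd hybrid background. There were 3 control pools (7, 9 and 11), called wild type by the labels, and 2 Dicer cKO pools (10 and 12). In the cKO animals Dicer, the RNase that releases mature microRNAs from hairpin precursors, was deleted by progesterone receptor-Cre, so deletion is limited to cells in which that driver has been active, and a whole uterus also holds other cells. Whether control animals carried Cre or floxed alleles, and how many uteri formed a pool, are not given in the sources used here. The p-values therefore measure the spread between these pools.

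Each pool was read on 1 Illumina array, named by the labels as a human WG-6 v3 chip, although 9254 of the 31490 array names end in RIK, the style of mouse cDNA clones. Between 21297 and 22414 probes were detected per array, with a median of 44 beads per probe. Uterine genes were present in every pool, among them Hoxa10, Hoxa11 and Esr1. Dicer1 read 9.15, 9.08 and 9.12 in control pools 7, 9 and 11, against 8.62 and 8.75 in Dicer cKO pools 10 and 12 on the log2 scale. That is a difference of -0.43 ± 0.09 (SE; limma adjusted p = 0.0224). Leaving out pool 7, 9, 10 or 11 ended the call (limma adjusted p from 0.0574 to 0.176). The sources used here do not place the probe relative to the deleted part.

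The microRNA-29 family is shown first because its known targets make up much of the collagen family and because Dicer makes mature microRNAs. The mature forms listed by RefSeq for GRCm38.p6 share the seed, bases 2 to 8, printed in capitals. miR-29a lies at chr6:31062673-31062694 on the minus strand and miR-29c at chr1:195037600-195037621 on the plus strand. The mature miR-29b is made from loci at chr6:31063025-31063047 (minus) and chr1:195037091-195037113 (plus).
mmu-miR-29a-3p: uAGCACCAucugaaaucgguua
mmu-miR-29b-3p: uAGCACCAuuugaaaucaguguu
mmu-miR-29c-3p: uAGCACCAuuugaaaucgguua
The arrays held no reading of these microRNAs, and whether they fell in the Dicer cKO pools was not tested.

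Most tested collagen genes were not called different between Dicer cKO and control pools. Of 32 tested genes, 2 rose and 3 fell (limma adjusted p under 0.05 over all genes). Of all 15733 genes, 6.74% were called, with 2.78% higher and 3.96% lower. Col4a6, a basement membrane chain, rose by 0.63 log2 units and Col27a1, a fibrillar collagen, by 0.58. Col17a1 and Col23a1, collagens that span the cell membrane, fell by 0.51 and 0.49, and Col14a1, which binds to the surface of fibrils, by 0.46. The size of the difference was below 0.3 log2 units for 24 of the 32 genes. The 95% interval lay within 0.5 log2 units of 0 for 18 of the 32, so larger changes of the others are not excluded. The median size was 0.16, against 0.13 over all genes tested.

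The signed median was 0.09 over the 32 collagens and 0.01 over all genes, with 18 collagens above and 14 below 0. Of all 15733 genes 8343 lay above and 7390 below 0. In 14 of the 32 the Dicer cKO pools lay entirely above or below the control pools. Groups do not overlap in 37.6% of all genes. At an unadjusted p under 0.05, 9 of the 32 differed, against 20.8% of all genes. With 1 pool left out, the number of collagens called was 1 without control pool 7 or 9, 2 without control pool 11, 0 without Dicer cKO pool 10 and 3 without Dicer cKO pool 12.

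**Figure D1:**
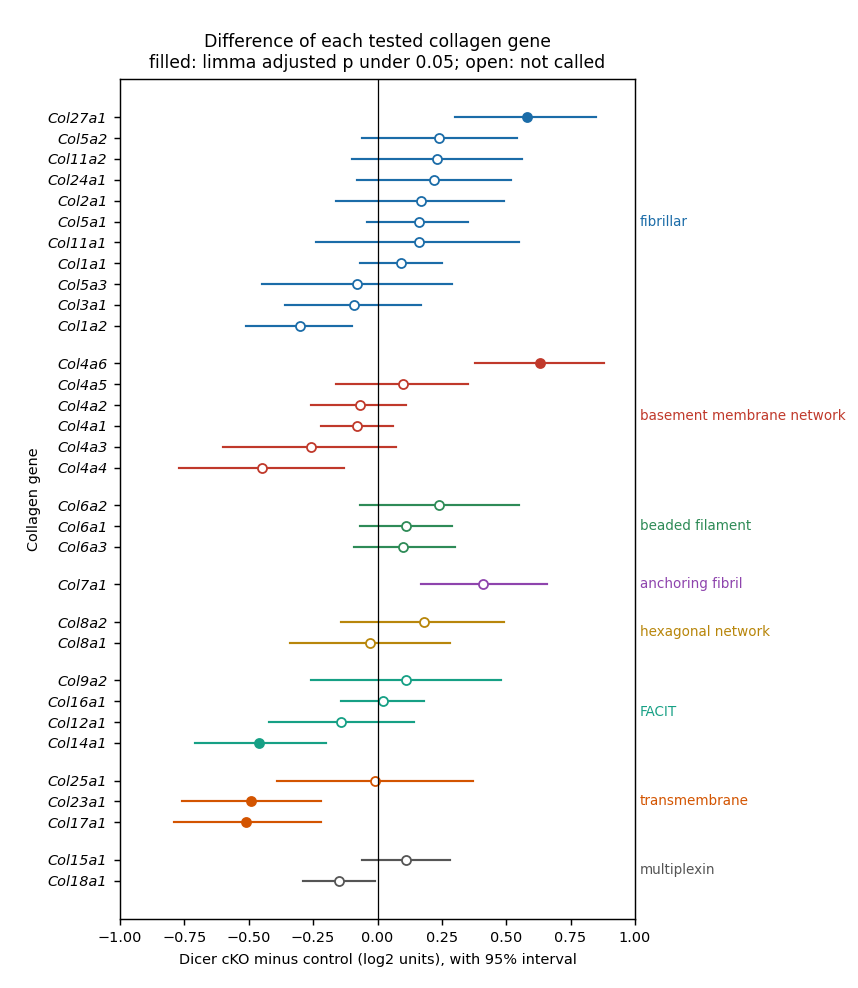
The difference between Dicer cKO and control pools on the log2 scale (horizontal axis) for each of the 32 tested collagen genes, grouped by class, with the 95% interval of the limma fit as a line. Filled circles mark the 5 called genes, of which Col4a6 and Col27a1 lie to the right of 0 and Col14a1, Col23a1 and Col17a1 to the left.

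Among fibrillar collagens, whose molecules pack into banded fibrils, all 11 genes were tested, 1 rose, none fell and 10 did not pass. Over all genes 2.78% were called higher and 3.96% lower. Col27a1, a fibrillar chain best known from cartilage, read 6.96, 6.89 and 6.98 in control pools 7, 9 and 11, against 7.62 and 7.42 in Dicer cKO pools 10 and 12. Every Dicer cKO value lay above every control value. The difference was 0.58 ± 0.12 (SE; 95% interval 0.30 to 0.85; limma adjusted p = 0.0217), a 1.49-fold rise.

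The call of Col27a1 was lost without control pool 7 or 9 (limma adjusted p = 0.0555 and 0.0789), without Dicer cKO pool 10 (0.205) and with median scaling (0.0528). A dimmer probe that maps to Col27a1 only through a clone name differed by 0.12 ± 0.16.

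The chains of type I and type III collagen, the bulk of the stromal fibrils, did not pass the test. Col1a1, the major chain of type I, read 13.44, 13.58 and 13.65 in the control pools, against 13.63 and 13.67 in the Dicer cKO pools. The groups overlapped, and the 95% interval of the difference ran from -0.07 to 0.25. Its partner chain Col1a2 read 11.00, 10.81 and 10.90 in the controls, against 10.50 and 10.71 in the Dicer cKO pools. The Dicer cKO values were lower in both pools, at -0.30 ± 0.09 (SE; interval -0.51 to -0.10; limma adjusted p = 0.0868).

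Because type I collagen is assembled from both chains, their difference within each pool was compared. Col1a2 minus Col1a1 was -2.44, -2.77 and -2.75 in control pools 7, 9 and 11, against -3.13 and -2.97 in Dicer cKO pools 10 and 12. It was lower by 0.40 in the Dicer cKO pools without overlap between the groups, with a mean of -3.05 against -2.65. The exact permutation p was 0.1 (2-sided, 10 splits, 0.25 adjusted over 5 pairs of chains), the smallest that 3 against 2 pools can give.

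Col3a1, the chain of type III collagen, read 11.90, 11.85 and 11.93 in the control pools, against 11.56 and 12.04 in Dicer cKO pools 10 and 12. The Dicer cKO pools fell on either side of the controls, and the difference was -0.09 ± 0.12, or 0.15 without Dicer cKO pool 10. Type V chains, which start fibrils and set their width, did not pass either. Col5a2 read 8.53, 8.78 and 8.78 in the controls, against 8.74 and 9.13 in the Dicer cKO pools, a difference of 0.24 ± 0.13 with overlap between groups. It was 0.15 without control pool 7, 0.43 without Dicer cKO pool 10 and 0.04 without Dicer cKO pool 12. Col5a1 differed by 0.16 ± 0.09 and Col5a3 by -0.08 ± 0.17, and neither passed.

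The remaining fibrillar genes were Col2a1 and the type XI chains of cartilage fibrils, and Col24a1. They read dim, with control means from 5.13 for Col11a2 to 5.62 for Col24a1, where the lowest detected signals of the arrays also lie. Their differences ran from 0.16 for Col11a1 to 0.23 for Col11a2, with SE from 0.14 to 0.18, and none passed. Of the cartilage markers Acan, Matn1 and Cnmd were not detected on any array, while Comp, detected on 2 arrays, and Hapln1, detected on all 5, were tested and not called.

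Basement membrane collagens gave the largest rise of the family beside neighbours that did not pass. All 6 type IV genes were tested, 1 rose, none fell and 5 did not pass. Col4a6, a chain of the basement membranes of smooth muscle and some epithelia, read 8.21, 8.51 and 8.37 in control pools 7, 9 and 11, against 8.97 and 9.01 in Dicer cKO pools 10 and 12. Both Dicer cKO pools were far above all controls. The difference was 0.63 ± 0.11 (SE; interval 0.38 to 0.88; limma adjusted p = 0.00902), a 1.55-fold rise. Without Dicer cKO pool 10 the difference was 0.64 with a limma adjusted p of 0.0749.

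The probes of Col4a6 differed in their readings. Its second probe differed by 0.49 ± 0.14, while probes with mean signals of 5.26 and 4.90, close to background, differed by 0.12 and -0.08. Averaged over its 4 detected probes, Col4a6 differed by 0.29 and was not called (limma adjusted p = 0.165).

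The type IV genes lie in head-to-head pairs, Col4a1 beside Col4a2, Col4a3 beside Col4a4 and Col4a5 beside Col4a6. Col4a1 and Col4a2, the chains found in nearly every basement membrane, differed by -0.08 ± 0.06 and -0.07 ± 0.08. Their difference within a pool moved by 0.01 between the groups. Col4a3 read 6.53, 6.27 and 6.28 in the controls, against 5.95 and 6.24 in the Dicer cKO pools, at -0.26 ± 0.15, or -0.12 without Dicer cKO pool 10. Col4a4 read 5.93, 6.14 and 5.95 in the controls, against 5.45 and 5.66 in the Dicer cKO pools, at -0.45 ± 0.14 (limma adjusted p = 0.0983). Both genes of this pair, known from kidney and other specialised basement membranes, were lower in both Dicer cKO pools without overlap, and neither passed. Groups do not overlap in 37.6% of all genes.

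Col4a5, the neighbour of Col4a6 on chromosome X, differed by 0.10 ± 0.11 with an interval from -0.16 to 0.35. Col4a6 minus Col4a5 was -2.31, -1.97 and -2.05 in the control pools, against -1.40 and -1.76 in the Dicer cKO pools. The shift was 0.53 and the groups did not overlap (exact permutation p = 0.1, 0.25 adjusted over 5 pairs). This p is the smallest that 3 against 2 pools can give. Col4a6 was already called from the same values, so the shift adds no support to its call. Col4a4 minus Col4a3 moved by -0.19 and Col6a2 minus Col6a1 by 0.13, both with overlap (exact permutation p = 0.4 and 0.5).

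The start sites of Col4a1 and Col4a2 in the RefSeq promoter table lie 21 bases apart, and those of Col4a5 and Col4a6 lie 1343 bases apart. For 3 genes (Col4a6, called higher, Col7a1, not called, and Col17a1, called lower) the 250 bases before the start site are shown 5′ to 3′ on the strand of the gene (GRCm38.p6). Capitals mark motifs known from promoters on either strand, which are the TATA box motif TATAAA, the CCAAT box motif CCAAT and the GC box motif GGGCGG.
Col4a6, chrX:141474077-141474326, minus strand: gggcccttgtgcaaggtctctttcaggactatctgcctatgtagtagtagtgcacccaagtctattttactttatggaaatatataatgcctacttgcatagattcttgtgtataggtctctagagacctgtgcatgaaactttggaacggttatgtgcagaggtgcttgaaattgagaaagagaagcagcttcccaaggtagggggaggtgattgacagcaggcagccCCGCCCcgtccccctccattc
Col7a1, chr9:108953336-108953585, plus strand: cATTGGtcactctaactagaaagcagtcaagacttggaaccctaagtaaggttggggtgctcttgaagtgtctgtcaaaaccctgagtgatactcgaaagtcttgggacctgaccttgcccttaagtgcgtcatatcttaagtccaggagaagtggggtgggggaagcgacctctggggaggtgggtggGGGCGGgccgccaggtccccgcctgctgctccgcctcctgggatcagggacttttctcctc
Col17a1, chr19:47692043-47692292, minus strand: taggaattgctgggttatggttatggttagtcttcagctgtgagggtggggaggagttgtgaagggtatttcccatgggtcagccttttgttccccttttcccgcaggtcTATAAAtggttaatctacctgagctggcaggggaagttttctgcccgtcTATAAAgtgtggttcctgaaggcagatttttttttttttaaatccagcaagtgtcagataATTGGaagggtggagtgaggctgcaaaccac
Col4a6 holds 1 GGGCGG, Col7a1 holds 1 GGGCGG and 1 CCAAT, and Col17a1 holds 2 TATAAA and 1 CCAAT. Of 32851 promoter windows of the same length, 12.4% hold TATAAA, 33.8% CCAAT and 32.7% GGGCGG. These matches are a description of the letters.

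Type VI collagen forms beaded filaments around cells, and its 3 matched genes were measured without a call. Col6a1 read 13.51, 13.74 and 13.69 in the control pools, against 13.82 and 13.69 in the Dicer cKO pools, a difference of 0.11 ± 0.08. Col6a2 read 12.05, 12.44 and 12.64 in the controls, against 12.65 and 12.59 in the Dicer cKO pools, a difference of 0.24 ± 0.14. Col6a3 read 12.41, 12.65 and 12.67 in the controls, against 12.62 and 12.73 in the Dicer cKO pools, a difference of 0.10 ± 0.09. For each chain control pool 7 was the lowest of the 5 pools, and the other control pools overlapped the Dicer cKO pools. Without control pool 7 the differences were 0.04 for Col6a1, 0.08 for Col6a2 and 0.02 for Col6a3.

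Col7a1 encodes the anchoring fibrils that tie epithelium to the stroma beneath. It read 9.59, 9.93 and 9.87 in control pools 7, 9 and 11, against 10.17 and 10.26 in Dicer cKO pools 10 and 12. The Dicer cKO values were higher without overlap, at 0.41 ± 0.11 (SE; interval 0.17 to 0.66), and narrowly missed the threshold (limma adjusted p = 0.0517). Its dimmer probe differed by 0.64 ± 0.15 and was called in the fit over all probes (limma adjusted p = 0.0357), where 5.87% of 22845 probes were called. Col7a1 was called with a robust estimate of the spread (limma adjusted p = 0.0427) and with the mean of its detected probes (0.0348). In the other 11 of 13 settings it was not called. They include median scaling (limma adjusted p = 0.0745), no intensity trend (0.126) and leaving out control pool 7, 9 or 11 (0.118, 0.0585 and 0.0725).

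Collagens of hexagonal networks, known from vessel walls and the cornea, did not pass. Col8a1 read 7.16, 6.91 and 7.26 in the controls, against 7.15 and 7.02 in the Dicer cKO pools. Col8a2 read 8.88, 9.03 and 9.38 in the controls, against 9.37 and 9.17 in the Dicer cKO pools. For both genes the Dicer cKO values lay within the control range. The difference of Col8a2, 0.18 ± 0.14, was 0.06 without control pool 7 and 0.32 without control pool 11.

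**Figure D2:**
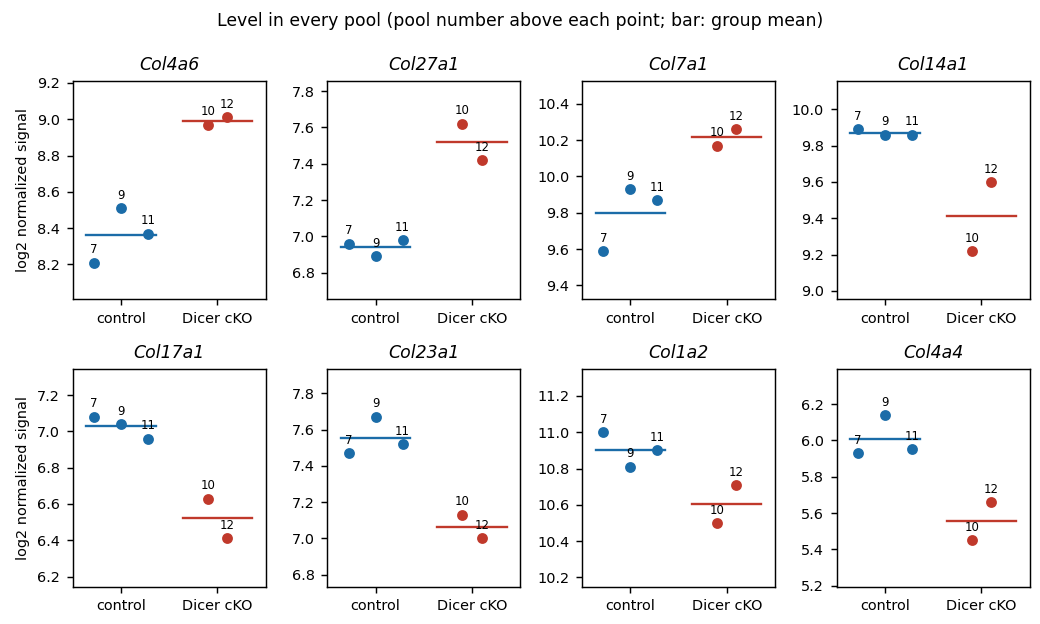
Level of 8 collagen genes in every pool, as log2 normalized signal (vertical axis, the same span of 1.2 log2 units in each panel), with control pools in blue, Dicer cKO pools in red, pool numbers above the points and bars at the group means. The 8 genes are the tested collagens without overlap whose difference is at least 0.3 log2 units in size. Their separation in each panel therefore follows from the choice. The Dicer cKO pools lie above the control range for Col4a6, Col27a1 and Col7a1 and below it for the other 5. Groups do not overlap in 37.6% of all genes.

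Fibril-associated collagens with interrupted helices coat fibrils rather than forming them. Of 7 matched genes 4 were tested, none rose and 1 fell, while 3.96% of all genes were called lower. Col14a1, which binds fibrils through decorin in stromal tissue, read 9.89, 9.86 and 9.86 in control pools 7, 9 and 11, against 9.22 and 9.60 in Dicer cKO pools 10 and 12. The controls were almost identical and both Dicer cKO pools were lower. The difference was -0.46 ± 0.11 (SE; interval -0.71 to -0.20; limma adjusted p = 0.0414), a 1.37-fold fall.

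A second probe of Col14a1 differed by -0.45 ± 0.13 and was not called. Without Dicer cKO pool 10, the lower of the pair, the difference was -0.26 (limma adjusted p = 0.30), and the call was also lost without control pool 7, 9 or 11 (limma adjusted p = 0.113, 0.0971 and 0.0859).

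Col12a1, a close relative of Col14a1, read 7.42, 7.59 and 7.71 in the controls, against 7.36 and 7.51 in the Dicer cKO pools, at -0.14 ± 0.13. Col9a2, known from cartilage fibrils, read 7.97, 8.20 and 8.22 in the controls, against 8.53 and 7.95 in Dicer cKO pools 10 and 12. The gap of 0.59 between its Dicer cKO pools was the widest among the 32 genes, where the median gap was 0.17. Col16a1 differed by 0.02 ± 0.07, with an interval from -0.14 to 0.18.

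Of 4 matched genes of membrane-spanning collagens 3 were tested, 2 were called lower and Col25a1 was not called. Over all genes 3.96% were called lower. Col17a1, the hemidesmosome collagen that fixes basal epithelial cells to the basement membrane, read 7.08, 7.04 and 6.96 in control pools 7, 9 and 11, against 6.63 and 6.41 in Dicer cKO pools 10 and 12. The difference was -0.51 ± 0.13 (SE; interval -0.79 to -0.22; limma adjusted p = 0.0458). Its other detected probes read -0.30 and -0.27 and did not pass. The call was lost with any of the 5 pools left out (limma adjusted p from 0.0664 without control pool 11 to 0.163 without Dicer cKO pool 12).

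Col23a1, a membrane collagen of epithelial and other cells, read 7.47, 7.67 and 7.52 in the control pools, against 7.13 and 7.00 in the Dicer cKO pools. The groups did not overlap, at -0.49 ± 0.12 (SE; interval -0.76 to -0.22; limma adjusted p = 0.0412). A second probe of Col23a1 differed by -0.61 ± 0.12 and was called in the fit over all probes (limma adjusted p = 0.0146). With a pool left out, the limma adjusted p for Col23a1 ran from 0.0728 without control pool 11 to 0.15 without control pool 9, so the call was lost in each case. Col25a1, a membrane collagen of neurons and muscle, read 5.05, 5.54 and 5.37 in the controls, against 5.42 and 5.19 in the Dicer cKO pools, within the control range and close to background.

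The multiplexins, basement membrane collagens that carry sugar chains, did not pass. Col18a1, the source of endostatin, read 12.96, 12.87 and 12.90 in the control pools, against 12.77 and 12.76 in the Dicer cKO pools. The Dicer cKO values were lower without overlap by a small amount, -0.15 ± 0.06 (interval -0.29 to -0.01; limma adjusted p = 0.221). Col15a1 read 11.66, 11.60 and 11.74 in the controls, against 11.72 and 11.83 in the Dicer cKO pools, a difference of 0.11 ± 0.07.

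**Figure D3:**
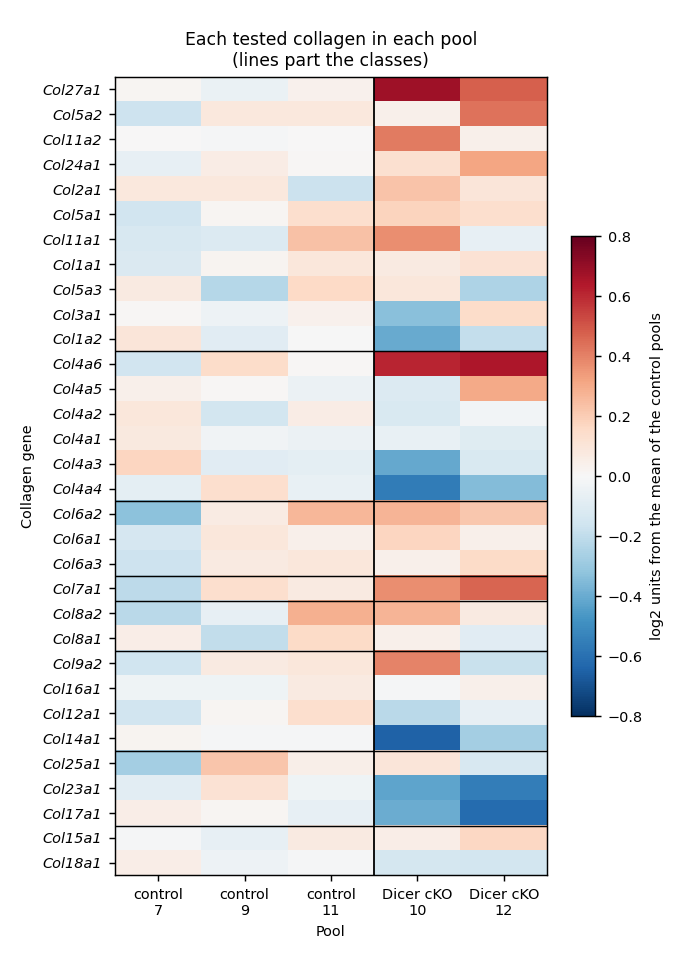
Each tested collagen (rows, classes parted by lines) in each pool (columns), coloured by its distance from the mean of the control pools in log2 units, red above and blue below. In Dicer cKO pool 10 a total of 13 genes lay at least 0.3 log2 units away from the control mean and in Dicer cKO pool 12 a total of 9, against 1 gene in control pool 7 and 0 in control pools 9 and 11.

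The control pools set their own mean, so distances in them are smaller by construction. The median distance of the 32 genes was 0.05 in each Dicer cKO pool, against -0.05, 0.01 and 0.04 in control pools 7, 9 and 11. Over all genes it was 0.02 in Dicer cKO pool 10 and 0.01 in Dicer cKO pool 12. Genes at least 0.3 log2 units away were not counted over all genes.

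Probes of the same gene were compared where several were detected. Of 18 such genes, 15 had all their probes on the same side of 0, and the median gap between the probes of a gene was 0.12. Col4a6 had the widest gap, 0.71.

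**Figure D4:**
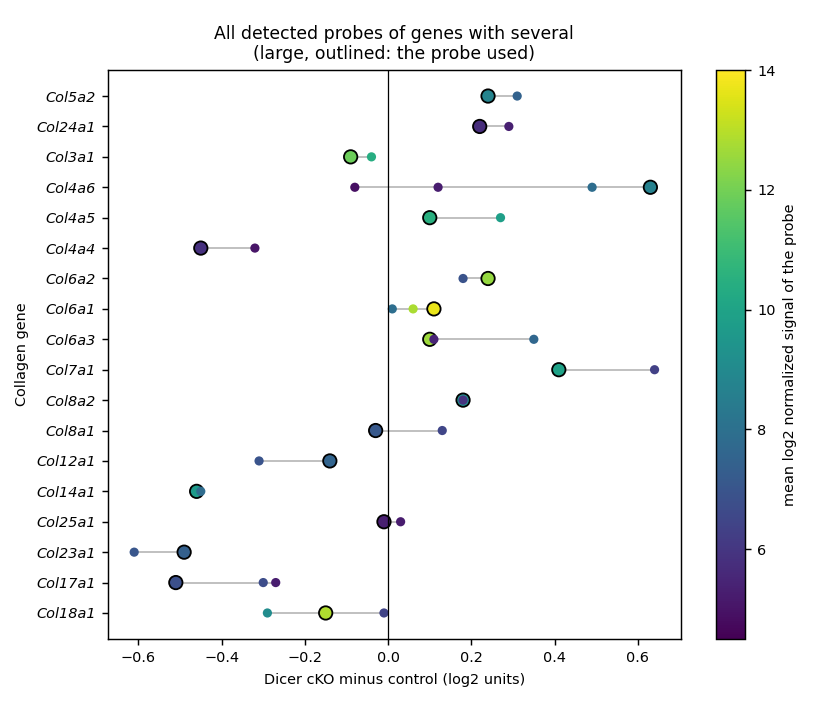
Difference between Dicer cKO and control pools in log2 units (horizontal axis) for every detected probe of the 18 collagen genes with several, coloured by mean log2 signal, with the probe used drawn large and outlined. The bright probes of Col4a6 lie at 0.63 and 0.49 and its dim probes near 0, while both probes of Col7a1, Col14a1 and Col23a1 lie on 1 side.

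Some collagen genes carry other names on the array and so are not among the 38. Col26a1, listed as EMID2 and named here after its value was seen, read 10.15, 10.34 and 10.47 in control pools 7, 9 and 11, against 11.09 and 10.74 in Dicer cKO pools 10 and 12. It rose by 0.60 ± 0.12 (SE; limma adjusted p = 0.0167). The call ended without control pool 7 (limma adjusted p = 0.0504) and without Dicer cKO pool 10 (0.42, limma adjusted p = 0.188). Col6a4, Col20a1 and Col22a1, listed under clone names, had differences of 0.33, -0.23 and 0.08 and did not pass.

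Collagens generally listed as microRNA-29 targets were described by their counts. The list, drawn from general knowledge and not from a search for sites, held 21 of the 38 genes. Of the 19 tested, 1 rose (Col4a6), none fell and 18 did not pass, with a median difference of 0.10, while 6.74% of all genes tested were called. Of the 13 tested collagens outside the list, 1 rose and 3 fell, with a median of 0.02. Whether the lists differ was not tested. The upper bounds of the 95% intervals of the 19 genes ran from -0.13 log2 units for Col4a4 to 0.88 for Col4a6. They were 0.66 for Col7a1, 0.55 for Col11a1, 0.54 for Col5a2, 0.52 for Col24a1 and 0.49 for Col2a1, and at most 0.35 for the remaining genes of the list.

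Other genes of the collagen pathway were read from a list of 67, of which 58 were tested, 0 rose, 3 fell and 55 did not pass in the limma fit (16 at an unadjusted p under 0.05). Over all genes 6.74% were called and 20.8% had an unadjusted p under 0.05. The median difference of the 58 was 0.02. Among the 18 tested hydroxylases, chaperones and exporters, which modify and fold chains in the endoplasmic reticulum, none was called and 15 lay above 0, with a median of 0.15. Over all genes 8343 of 15733 lay above 0, with a median of 0.01, and whether the list differs from them was not tested. The nearest to the threshold were P3h4 at 0.36 ± 0.10 and P3h1 at 0.34 ± 0.12 (limma adjusted p = 0.0703 and 0.147).

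The gene with the largest change was Pcolce2, an enhancer of the enzyme that trims procollagen ends. Pcolce2 read 7.66, 7.89 and 7.89 in the control pools, against 5.70 and 6.20 in the Dicer cKO pools. It fell by 1.86 ± 0.16 (SE; limma adjusted p = 0.000175), a 3.63-fold fall that was called in all 13 alternative settings. Bmp1, the trimming enzyme itself, differed by 0.34 ± 0.12, and Pcolce, the related enhancer, by 0.17 ± 0.10, and neither passed.

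Lox, the enzyme that starts collagen cross-links, read 10.01, 10.20 and 10.14 in the controls, against 9.26 and 9.75 in the Dicer cKO pools. It fell by 0.61 ± 0.13 (limma adjusted p = 0.0248), or by 0.36 without Dicer cKO pool 10, where the call was lost (0.185), as it was without control pool 9 or 11 (0.0753 and 0.0599). Loxl1 differed by -0.05 ± 0.07 and Loxl2 had an interval from -0.41 to 0.41.

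The gelatinase gene Mmp2 read 13.42, 13.42 and 13.43 in the control pools, against 13.03 and 13.25 in the Dicer cKO pools. It fell by 0.28 ± 0.07 (limma adjusted p = 0.0481), and 9 of 13 other settings ended the call. They include leaving out control pool 7, 9 or 11 or Dicer cKO pool 10 (limma adjusted p = 0.135, 0.115, 0.0896 and 0.349, with a difference of -0.18 without the last). None of 11 fibril partners was called by limma (5 at an unadjusted p under 0.05), and 8 of them lay below 0. Over all genes 7390 of 15733 lay below 0 and 20.8% had an unadjusted p under 0.05. Podn, counted in the 5 and the 8, was detected on 3 control and 0 Dicer cKO arrays. It passed the filter through the controls alone. Fn1, encoding fibronectin, was at 0.31 ± 0.09 and the proteoglycan gene Bgn at -0.31 ± 0.10. The median of the 11 partners was -0.15. None of the 7 collagen receptor genes was called by limma (0 at an unadjusted p under 0.05), with differences from -0.13 for Ddr2 to 0.12 for Itga11. Among 9 regulators Sox9 and Sp7, at -0.29 ± 0.11 and -0.33 ± 0.13, were closest to the threshold and did not pass.

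Cell type markers moved beside these differences, and in whole uteri fewer cells of a type and less RNA per cell cannot be told apart. Of 9 epithelial markers tested, 2 rose (Krt7 and Cldn4) and 5 fell, while 6.74% of all genes were called. Their summed signal on the linear scale, set mostly by the brightest markers, was 10662 to 13810 in the control pools and 8029 to 8041 in the Dicer cKO pools. Epcam was not detected on any array. These sums stand beside the values of Col17a1, Col7a1 and Col4a6, whose cells of origin were not measured. Of 10 stromal markers 4 fell (Vim, Thy1, Twist2 and Tcf21) and none rose. The others, from -0.21 for Hoxa10 to -0.05 for Nr2f2, were not called. The stromal sums, also set mostly by bright markers such as Thy1 and Vim, were 13032 to 14627 in the controls. In the Dicer cKO pools they were 8664 to 10221. Beside these sums Col14a1 and Lox fell, while Col1a1, Col1a2 and Col3a1 were not called. The part of these shifts in the collagen differences was not tested.

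Smooth muscle markers, 9 tested, and endothelial markers, 8 tested, held 0 calls by limma (0 and 1 at an unadjusted p under 0.05). Their sums were 47413 to 49756 and 5683 to 6521 in the controls, against 49817 to 51417 and 5699 to 6185 in the Dicer cKO pools. Of 4 pericyte markers 1 fell (Rgs5), of 6 macrophage markers 2 rose (Cd68 and Lyz2) and of 4 adipocyte markers tested 2 fell (Adipoq and Cfd). The other tested markers of these lists, among them Csf1r, Mrc1 and Lpl, were not called. Of all genes tested 6.74% were called. Of 4 mesothelial, 2 cartilage and 2 Schwann cell markers tested limma called none (0 in each list at an unadjusted p under 0.05). Of 2 skeletal muscle markers tested Acta1 fell, at -0.69 ± 0.13 (limma adjusted p = 0.0129). The other, Myh1, was close to background and not called. Myh2, Ckm and Myog were not detected on any array, so the fall of Acta1 is not read as one of skeletal muscle.

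**Figure D5:**
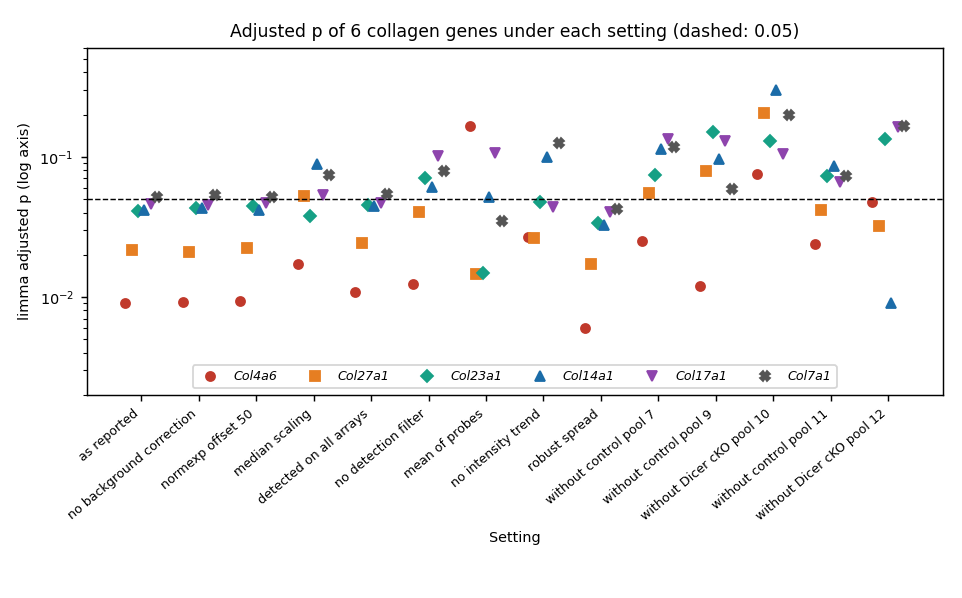
The limma adjusted p (vertical axis, log scale) of 6 collagen genes as reported and under 13 other settings (horizontal axis), with a dashed line at 0.05. Col4a6 lies above the line with the mean of its probes and without Dicer cKO pool 10, and no gene lies below the line without Dicer cKO pool 10.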

How the data were processed

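The authors deposited, per the file headers, linear intensity values, averaged over the beads of a probe, for each array, with the SD of the bead intensity, the number of beads and a detection score from 0 to 1. BeadStudio was used, per the submitters' processing notes (version not stated). No background subtraction or scaling is visible in the deposited intensity values, whose array medians ran from 57.5 to 63.0. A deposited table of the whole series was not used, since its row identifiers could not be paired with the probes.

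With 1 minus the score as detection p, signals were background-corrected by normexp (offset 16), quantile-normalized and put on the log2 scale with neqc of limma 3.58.1 in R 4.3.3. The offset compresses differences of dim genes. The filter kept probes detected (p below 0.05) on 2 or more of the 5 arrays, whatever their group. A gene was read from its brightest probe. Levels of different probes are not comparable. Names came from a RefSeq table of GRCm38.p6, with which all 38 collagen names matched. Dicer cKO minus control was tested with limma (lmFit, eBayes with an intensity trend), 2-sided, with Benjamini-Hochberg adjustment over 15733 genes. The fit was tested on simulated data. Alternatives covered background, scaling, filter, probe choice, spread and each pool left out. Pairs of chains were compared with an exact permutation test over pools.

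Genes given with a value in every pool were called collagens, up to 3 per class with the largest difference and those without overlap and a difference of at least 0.3, beside Col1a1 and Col3a1. The members and lists were chosen with earlier results of these data known. The bead error of the 5 called probes was 2.5% to 5.9% of the raw intensity on an array. The number of arrays limits the precision.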

Additional observations from a re-analysis of the deposited data

How the results depend on the processing

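The count of collagens called, 5 as reported, was 2 with median scaling in place of quantile normalization, 2 with no detection filter (29527 genes tested), 3 with the mean of all detected probes of a gene and 0 to 3 with 1 pool left out, and lay between 4 and 6 in the other settings. Over all genes the count was 1061, and 304 to 986 with a pool left out. The median difference over collagens, 0.09, was 0.05 with median scaling and 0.02 to 0.10 with a pool left out. The miR-29 list had 1 collagen called, 2 with a robust spread and 0 to 1 with a pool left out. The processing list had 3 called genes, 1 without the intensity trend and 1 to 6 with a pool left out.

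Signs turned only for genes that were not called, among the collagens and pathway genes named with a value in every pool. Col25a1 was 0.01 and Col8a1 0.05 with the mean of probes. With a pool left out Col25a1 ran from -0.14 to 0.10, Col8a1 from -0.12 to 0.05, Col3a1 from -0.33 to 0.15 and Col9a2 from -0.19 to 0.40. The cause was not tested. Genes near background, such as Col25a1 and Col11a2, allow only weak statements. No paired analysis was possible because the pool numbers are not shared between the groups. The comparison with the deposited table of the whole series was not run, since its rows could not be matched.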
